A study of Homo sapiens with 36 samples.

Results

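The comparison described here is between EA.hy926 cells kept for 12 weeks in 10 nM perfluorooctanoic acid (PFOA) and cells kept for the same time in vehicle. It rests on 6 of the 36 RNA-seq libraries of the series, 3 biological replicates at 10 nM and 3 vehicle controls, chosen by their labelled time and dose. The vehicle was 0.05% DMSO. The 3 libraries at 1 nM and the 3 at 100 nM from the same 12 weeks, and the 3 vehicle and 3 10 nM libraries from 6 weeks, served as neighbours for comparison. All groups carried the wild-type genotype of the line and grew in the same medium with hypoxanthine, aminopterin and thymidine, and cells of the long exposures were taken at passaging. The series also holds a short exposure at micromolar doses, which was not used here. Values are normalised read counts, and differences are on the log2(count + 1) scale as 10 nM minus vehicle, ± SE, unless another error is named.

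PFOA is a perfluoroalkyl acid that persists in blood. In liver cells it is best known as a ligand of PPAR-alpha, a nuclear receptor that controls genes of fatty acid oxidation. EA.hy926 is an established line made by fusing umbilical vein endothelial cells with a lung carcinoma line, so it has endothelial and epithelial features and is a single cell line rather than primary endothelium. Endothelial cells line vessels, sense flow and cytokines, and express interferon-stimulated genes when type I interferon signals through its receptor.

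Between 17815292 and 19077902 reads were recovered per library at 12 weeks, with 14393 to 15050 genes having a read in the vehicle and 10 nM libraries. The libraries of each group did not lie together. Transcripts of cytosolic ribosomal proteins took 22.4%, 13.0% and 12.3% of the counts in 10 nM replicates 1, 2 and 3, against 20.97%, 21.6% and 16.6% in the vehicle libraries. The groups overlapped because 10 nM replicate 1 had the highest share of the 6 and the other two 10 nM libraries the lowest. The difference of -3.85 percentage points had an exact permutation p of 0.4, two-sided, where 3 against 3 libraries cannot go below 0.1. Mitochondrially encoded transcripts were also lowest in 10 nM replicates 2 and 3, at 9.05%, 5.51% and 5.63% against 9.17%, 8.74% and 6.78% (exact permutation p = 0.3).

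**Figure D1:**
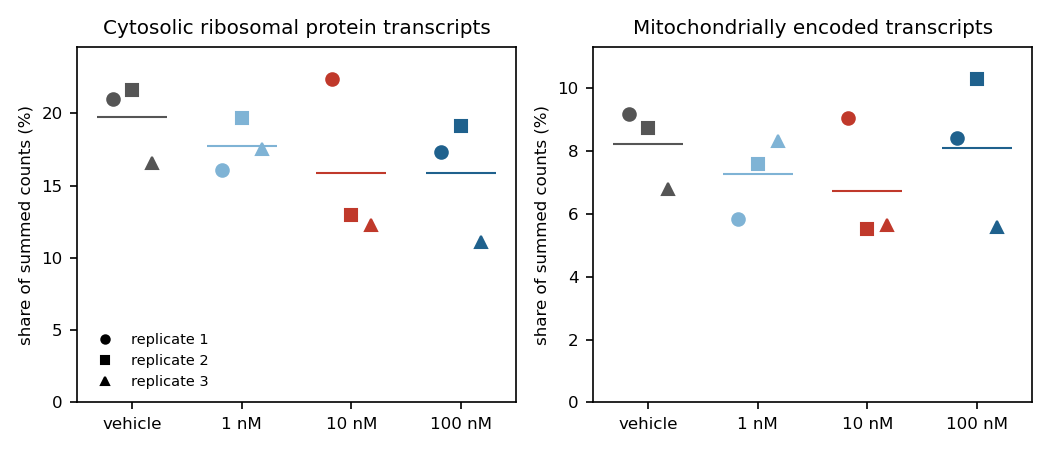
Share of summed counts (%) taken by cytosolic ribosomal protein transcripts (left) and mitochondrially encoded transcripts (right) in each of the 12 libraries at 12 weeks, with bars for the group means (n = 3). At 10 nM, replicate 1 lies at 22.4% and 9.05% while replicates 2 and 3 lie at 12.3% to 13.0% and 5.51% to 5.63%.

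The first principal component of the 12 libraries held 69.2% of the variance. It placed 10 nM replicate 1 at 51.2 and replicates 2 and 3 at -55.4 and -72.0, while vehicle replicate 2 lay at 114 and vehicle replicates 1 and 3 at 14.6 and -22.1. Levels followed transcript GC content along the same libraries. From the lowest to the highest GC quintile, the median difference between 10 nM and vehicle ran through 0.36, 0.27, 0.08, -0.23 and -0.60. In 10 nM replicate 1 alone, against the vehicle mean, the median ran from -0.14 in the lowest quintile to 0.12 in the highest. In replicates 2 and 3 it ran from 0.55 and 0.72 to -0.87 and -1.03. Vehicle replicate 2 went furthest the other way, from -0.80 to 0.94. The part of transcript composition in the differences below was not tested, so list medians are also given with the first principal component in the model. That component was computed from the same 12 libraries, treated ones included. A fit with it also takes away any difference of dose that lies along it, and the 2 cannot be told apart.

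**Figure D2:**
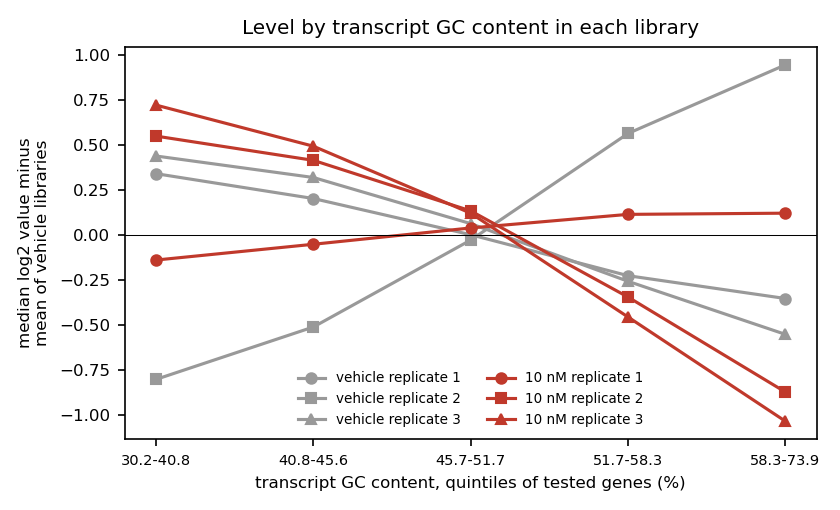
Median log2 level of genes minus the mean of the 3 vehicle libraries (vertical axis) in quintiles of transcript GC content (horizontal axis, %), one line per vehicle (grey) or 10 nM (red) library. 10 nM replicates 2 and 3 fall from 0.55 and 0.72 to -0.87 and -1.03, 10 nM replicate 1 stays between -0.14 and 0.12, and vehicle replicate 2 climbs from -0.80 to 0.94.

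The label of the cells was checked with marker genes. Of 13 endothelial markers, 11 had a mean count of at least 10, and CLDN5 was under 1. Of 10 epithelial markers 5 reached a mean of 10, with CDH1 under 1. Endothelial marker counts summed to 38660 to 107700 in the vehicle libraries and 30020 to 61680 in the 10 nM libraries. Epithelial marker counts summed to 39310 to 116400 and 22320 to 70780 in the same order. Of 8 leukocyte markers 1 reached 10, and PTPRC, CD3E and HBB were under 1. Leukocyte marker counts summed to 32.3 to 51.9 in the vehicle libraries and 23.96 to 50.7 in the 10 nM libraries. Of 6 fibroblast and pericyte markers 1 reached 10, and DCN and LUM were under 1. The counts of these 6 summed to 608 to 1758 in the vehicle libraries and 837 to 1330 in the 10 nM libraries. Nearly all of that sum was RGS5, since no other marker of the 6 had more than 7.38 counts in any of these libraries. In bulk libraries, fewer cells of a kind and less RNA per cell cannot be told apart.

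No gene passed the test. Limma called 0 of 12304 genes at an adjusted p under 0.05 (0% of those tested), with a smallest adjusted p of 0.655, and edgeR called 0. At an unadjusted p under 0.05 limma gave 168 genes (1.37%), of which 96 were higher (0.780%) and 72 lower (0.585%). DESeq2 called 2, the readthrough gene ATP5MF-PTCD1 and the unnamed locus LOC128125822, both of which could share reads with neighbours and had a group at 0. The median SE of a gene's difference was 0.43 on the log2 scale, which is 1.34-fold. Changes of that size were not detectable for the typical gene, and the limit of detection lay well above it. Even SERPINB10, with a difference of 2.20 ± 0.39, did not pass (adjusted p = 0.655 by limma). Single libraries moved the spread of p-values more than they moved the calls. Without 10 nM replicate 1, 3020 genes had an unadjusted p under 0.05, without vehicle replicate 3 there were 1320, and without 10 nM replicate 3 there were 23, and no gene passed in any of these fits. With library quality weights in limma, which lean on a few libraries, 4407 genes passed. Each gene named below had an adjusted p of 0.655 unless another value is given.

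Groups that do not overlap were counted as a description. All 3 libraries at 10 nM lay above all 3 vehicle libraries for 253 genes (2.06% of those tested) and below them for 150 (1.22%). When the 1 nM and 100 nM libraries were included as well, the 10 nM libraries lay above all 9 others for 28 genes (0.228%) and below them for 12 (0.0975%). The same count of genes set apart from the other 9 libraries, in both directions, was 25 for vehicle, 9 for 1 nM, 40 for 10 nM and 73 for 100 nM.

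Interferon-stimulated genes had the most members set apart at 10 nM among the lists examined. These genes encode antiviral proteins such as the oligoadenylate synthetases, which make the activator of RNase L, and the MX GTPases, which block viral nucleocapsids. All 35 listed genes were tested. At 10 nM the mean was higher for 24 (51.1% of all tested genes were higher) and lower for 11 (48.9% of all), and 0 passed. The median difference was 0.37 against 0.02 over all tested genes. The 10 nM libraries lay above all vehicle libraries for 6 of the 35 and below for 0, beside 2.06% and 1.22% of all genes, and above all other 9 libraries for 4 of the 35, beside 0.228%. The median was 0.31, 0.27 and 0.44 in 10 nM replicates 1, 2 and 3 against the vehicle mean, and 0.01, 0.01 and 0.15 in vehicle replicates 1, 2 and 3. With the first principal component in the model, 28 of the 35 were higher and the median was 0.25.

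Many of these genes are switched on through an interferon-stimulated response element, which holds a pair of GAAA repeats. The RefSeq table of promoters, 250 bases before to 50 after each gene's start on GRCh38.p14, held windows for 28 of the 35 genes. The motif GAAANNGAAA, searched on both strands with overlapping matches counted, was in a window of 19 of the 28 (67.9%). It was in 3.57% of all 35116 windows, which is a share of windows and not of genes. Windows are printed for 4 members that show the element and the range of behaviour described below, with every match in capitals. OAS3 is on the plus strand at chr12:112938224-112938523, IFI44L on the plus strand at chr1:78620198-78620497, IFI6 on the minus strand at chr1:27672143-27672442 and BST2 on the minus strand at chr19:17405581-17405880.
OAS3: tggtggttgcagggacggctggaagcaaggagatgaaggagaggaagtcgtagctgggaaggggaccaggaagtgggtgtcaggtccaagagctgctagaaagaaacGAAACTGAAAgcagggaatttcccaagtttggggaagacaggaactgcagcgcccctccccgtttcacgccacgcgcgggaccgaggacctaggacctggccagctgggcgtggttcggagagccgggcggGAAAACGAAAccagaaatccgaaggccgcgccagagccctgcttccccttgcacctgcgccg
IFI44L: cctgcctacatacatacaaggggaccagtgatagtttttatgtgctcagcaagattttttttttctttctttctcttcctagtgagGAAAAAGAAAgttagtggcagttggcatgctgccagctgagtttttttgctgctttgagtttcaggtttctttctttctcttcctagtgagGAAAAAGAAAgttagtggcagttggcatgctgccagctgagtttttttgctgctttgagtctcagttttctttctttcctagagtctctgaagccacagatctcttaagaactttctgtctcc
IFI6: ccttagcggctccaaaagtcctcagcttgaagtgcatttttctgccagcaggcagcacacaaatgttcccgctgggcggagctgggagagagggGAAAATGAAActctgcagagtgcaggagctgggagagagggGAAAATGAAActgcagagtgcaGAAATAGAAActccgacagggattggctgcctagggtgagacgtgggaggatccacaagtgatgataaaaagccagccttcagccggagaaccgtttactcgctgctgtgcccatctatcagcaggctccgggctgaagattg
BST2: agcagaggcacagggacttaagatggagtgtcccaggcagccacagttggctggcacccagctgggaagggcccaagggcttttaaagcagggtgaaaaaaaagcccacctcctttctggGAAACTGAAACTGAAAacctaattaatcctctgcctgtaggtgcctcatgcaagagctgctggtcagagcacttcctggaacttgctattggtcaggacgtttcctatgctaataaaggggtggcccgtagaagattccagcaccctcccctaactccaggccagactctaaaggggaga
OAS3 held 2 matches, the first base of one 143 and of the other 12 bases before the start of the gene. IFI44L held 2 identical matches, 164 and 73 bases before it. IFI6 held 3, at 156, 115 and 93 bases, and BST2 held a pair that overlap, at 130 and 124 bases. A match describes these letters and says nothing of what binds there.

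MX2 (chromosome 21, 41362027 to 41409393), an interferon-induced GTPase, had counts of 66.3, 51.3 and 48.7 in 10 nM replicates 1, 2 and 3. In vehicle it had 17.8, 33.3 and 23.1, and the difference was 1.16 ± 0.37 (unadjusted p = 0.00879 by limma). Every 10 nM library lay above every other library of the 12 weeks, with 19.1, 27.3 and 27.3 at 1 nM and 24.4, 11.8 and 15.7 at 100 nM. OAS2 (chromosome 12, 112978519 to 113011723) had 243, 243 and 260 against 163, 135 and 194, a difference of 0.61 ± 0.26 (unadjusted p = 0.0345). The 3 libraries at 10 nM were close to each other and did not overlap with any other library. OAS3 had 371, 324 and 337 against 279, 169 and 271 (0.55 ± 0.31), and IFI44L, a protein of unsettled function, had 89.7, 107 and 121 against 56.8, 35.2 and 88.5 (0.89 ± 0.38). Both were above all 9 other libraries, OAS3 by a narrow margin over 318 at 100 nM and IFI44L over 88.5 in vehicle.

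RSAD2, which encodes the antiviral enzyme viperin, had counts of 18.2, 13.6 and 21.6 at 10 nM and 11.1, 9.26 and 10.1 in vehicle. It lay above the vehicle range but not above the highest 100 nM library at 13.8. PARP14, an ADP-ribosyltransferase, had 585, 502 and 634 against 450, 350 and 492, also without overlap with vehicle. XAF1, a pro-apoptotic interferon target, had 63.7, 32.1 and 40.7 against 11.1, 25.9 and 32.3, and its groups touched, since the lowest 10 nM library lay just under the highest vehicle library. IFNAR2, a subunit of the type I interferon receptor that was not on a list and was singled out after its values were seen, had 241, 246 and 304 against 168, 167 and 235. It lay above all 9 other libraries, with a difference of 0.48.

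**Figure D3:**
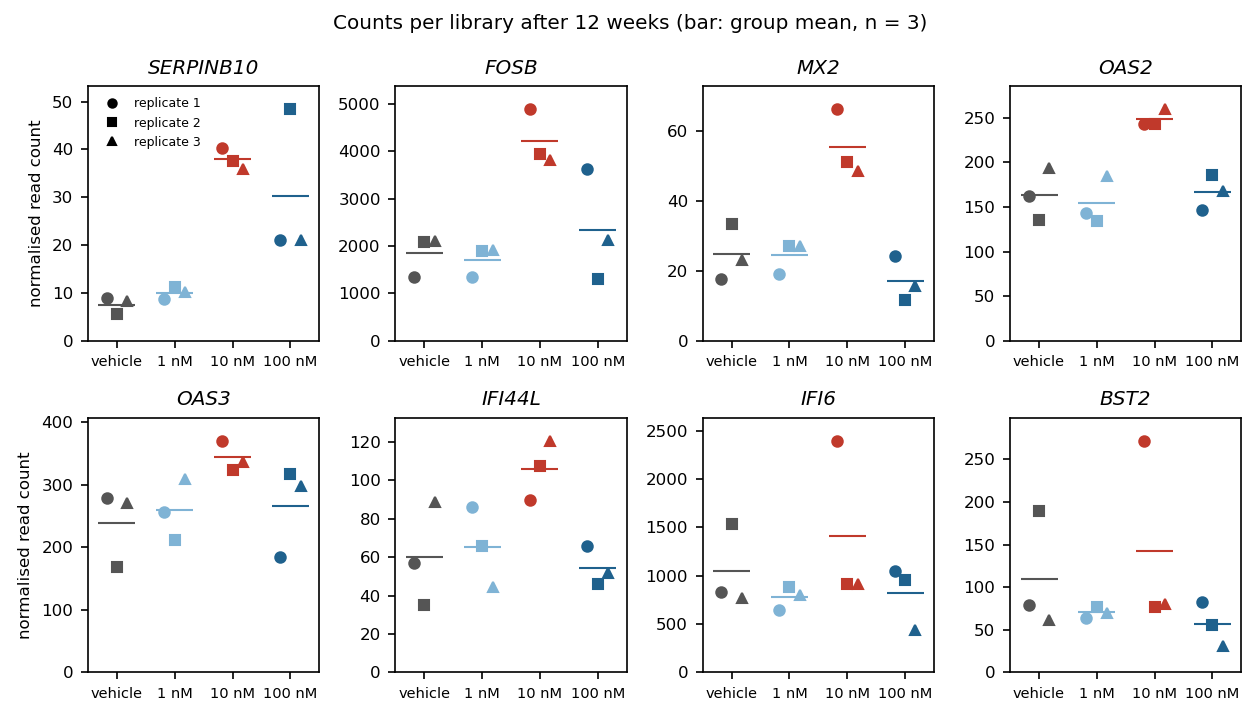
Normalised read counts (vertical axes, each from 0) of 8 genes in the vehicle, 1 nM, 10 nM and 100 nM libraries at 12 weeks, with bars for the group means (n = 3). For FOSB, MX2, OAS2, OAS3 and IFI44L the 3 points at 10 nM lie above the other 9, and for IFI6 and BST2 only 10 nM replicate 1 does.

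Another set of interferon-stimulated genes followed single libraries. IFI6, which encodes a mitochondrial and endoplasmic reticulum protein, had 2395, 914 and 916 at 10 nM against 831, 1532 and 770 in vehicle. BST2, the membrane protein tetherin that holds virions at the cell surface, had 272, 76.1 and 80.7 against 79.1, 189 and 61.8. IFI27 had 990, 272 and 296 against 254, 606 and 275. In all of these, 10 nM replicate 1 was the highest of the 6 libraries and vehicle replicate 2 the second, and the groups overlapped. Their differences were 0.34 ± 0.45 (adjusted p = 0.721 by limma), 0.28 ± 0.55 (adjusted p = 0.805) and 0.31 ± 0.50 (adjusted p = 0.771). Without 10 nM replicate 1 they were -0.12, -0.31 and -0.29, and with the first principal component in the model 0.94, 1.01 and 0.94. Members with lower means at 10 nM included ISG15, a ubiquitin-like modifier, at 8332, 1564 and 1097 against 5191, 11448 and 1903 (-0.99 ± 0.86). IRF7 (-1.01 ± 0.70), the regulator that amplifies interferon production, and IFITM3 (-0.81 ± 0.64), which blocks viral entry, had the same order of libraries. All 3 turned to values above 0 with the first principal component in the model, namely 0.22, 0.033 and 0.076.

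At 6 weeks the same dose gave another picture for the median of this list, though not for every member. Of the 31 members tested at both times, 15 lay higher and 16 lower at 6 weeks (median -0.13). The median of the 12-week minus the 6-week difference was 0.38, against -0.01 over all 12037 genes. It was larger for some other lists, such as ribosomal proteins (0.59), mitochondrially encoded genes (0.59) and histones (0.56), and was -0.46 for mitosis. The first principal component at 6 weeks held 83.8% of the variance. It placed the vehicle libraries at 18.5 to 113.5 and the 10 nM libraries at -84.3 to -30.3. Limma gave 5324 of 12037 genes at an unadjusted p under 0.05 at 6 weeks, against 168 of 12304 at 12 weeks. It called 0 at 6 weeks, with a smallest adjusted p of 0.0994, which was 0.655 at 12 weeks. What part this had in the shift was not tested. OAS2 had counts of 64.1, 74.4 and 72.7 at 10 nM and 97.0, 92.0 and 62.7 in vehicle at 6 weeks. Its difference moved by 0.84 ± 0.37 between the times (unadjusted p = 0.0360 by limma). IFI6 moved by 1.48 ± 0.64 (unadjusted p = 0.0320) and IFI27 by 2.23 ± 0.90 (unadjusted p = 0.0223). OAS3, IFI44L and PARP14 already lay above vehicle on average at 6 weeks (0.11 ± 0.31, 0.54 ± 0.37 and 0.42 ± 0.23). They moved by 0.44 ± 0.44, 0.36 ± 0.52 and 0.006 ± 0.32. None passed the adjustment, since limma called 0 of 12037 genes for the difference between times, with a smallest adjusted p of 0.906 and 42 genes (0.349%) at an unadjusted p under 0.05. MX2 had at most 4.85 counts in any vehicle or 10 nM library at 6 weeks and was not tested there.

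**Figure D4:**
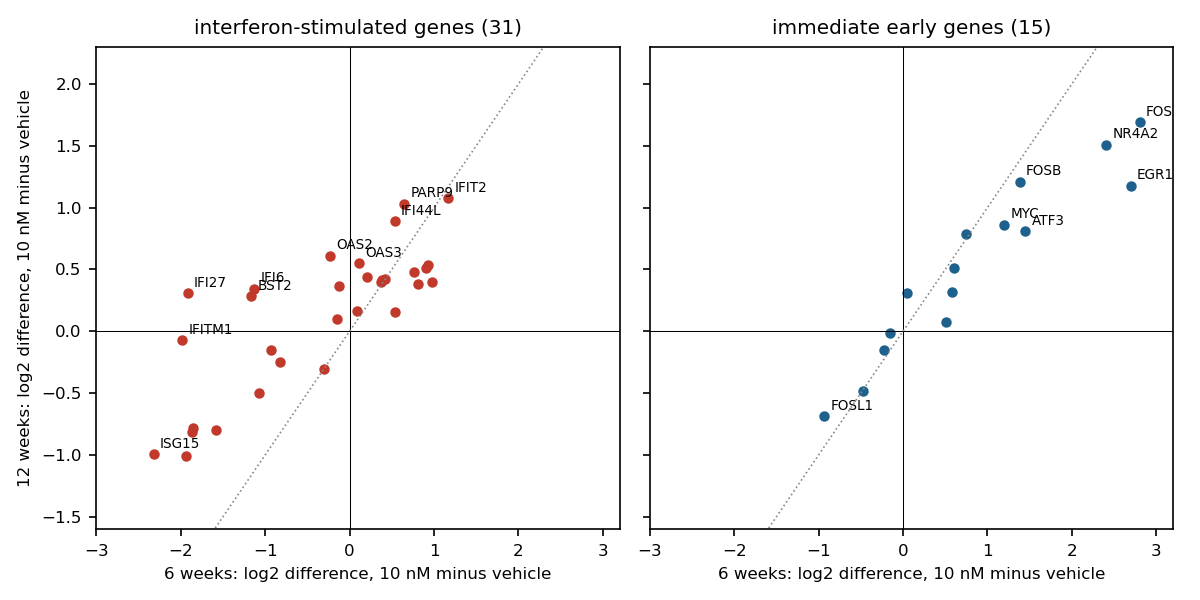
Difference between 10 nM and vehicle, log2(count + 1) scale, at 6 weeks (horizontal) and 12 weeks (vertical) for interferon-stimulated genes (left, 31 genes) and immediate early genes (right, 15 genes), one point per gene, with a dotted line where both are equal. OAS2, IFI6, IFI27 and BST2 lie below 0 at 6 weeks and above 0 at 12 weeks. OAS3, IFI44L, FOS, FOSB, NR4A2 and EGR1 lie above 0 at both.

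FOSB (chromosome 19, 45467996 to 45475179), an AP-1 transcription factor subunit of the immediate early class, was the tested gene of the list with non-overlapping groups. Immediate early genes are transcribed within minutes of a growth factor, serum or stress signal through MAP kinases. FOSB had 4886, 3931 and 3822 counts in 10 nM replicates 1, 2 and 3, against 1345, 2078 and 2116 in vehicle. The mean was 4213 ± 585 (SD, n = 3) against 1846 ± 434 (SD, n = 3). The difference was 1.21 ± 0.37 (unadjusted p = 0.00641 by limma), and it was 1.36 ± 0.34 with the first principal component in the model. All 10 nM libraries lay above the other 9, of which 100 nM replicate 1 was highest at 3622. At 6 weeks FOSB was at 1809, 1761 and 1972 at 10 nM against 650, 594 and 916 in vehicle, also without overlap, with a difference of 1.38. The difference between the times was -0.17 ± 0.44.

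Of 18 immediate early genes 15 were tested, 11 were higher and 4 lower, and 0 passed. The median difference was 0.51 against 0.02 over all tested genes, and it was 0.26, 0.72 and 0.86 in 10 nM replicates 1, 2 and 3. In vehicle replicates 1, 2 and 3 the list median was -0.48, 0.31 and 0.23, so the groups overlapped. FOS, the partner of JUN in AP-1, had 1477, 4010 and 4521 against 710, 424 and 2612, and NR4A2, an orphan nuclear receptor, had 40.3, 75.3 and 101 against 18.9, 14.8 and 43.3. EGR1, a zinc finger factor, had 352, 1042 and 1264 against 244, 233 and 701. In all of these 10 nM replicate 1 lay within the vehicle range and replicates 2 and 3 above it. ATF3, a stress-induced factor, had a difference of 0.81 ± 0.33 and FOSL1, another AP-1 subunit, one of -0.69 ± 0.46. The difference of ATF3 from vehicle was 0.64 at 1 nM and 0.945 at 100 nM. With the first principal component in the model 13 of 15 were higher and the median was 0.33.

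MAPK feedback genes, which limit ERK signalling and are induced by it, were all tested. Of the 12, 11 lay higher and 1 lower, and their median was 0.66. DUSP6, a phosphatase of ERK, had 1404, 3074 and 3597 at 10 nM against 1277, 502 and 1970 in vehicle. SPRY1, a Sprouty inhibitor of receptor signalling, had 9.10, 30.5 and 39.1 against 4.45, 1.85 and 15.7. In both, replicates 2 and 3 at 10 nM lay above the vehicle libraries and replicate 1 did not. The list median was 0.05, 0.96 and 1.00 in the 3 replicates and 0.26 with the first principal component in the model. In vehicle replicates 1, 2 and 3 the list median was -0.16, -0.64 and 0.44, so the groups overlapped. At 100 nM it was 0.70.

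**Figure D5:**
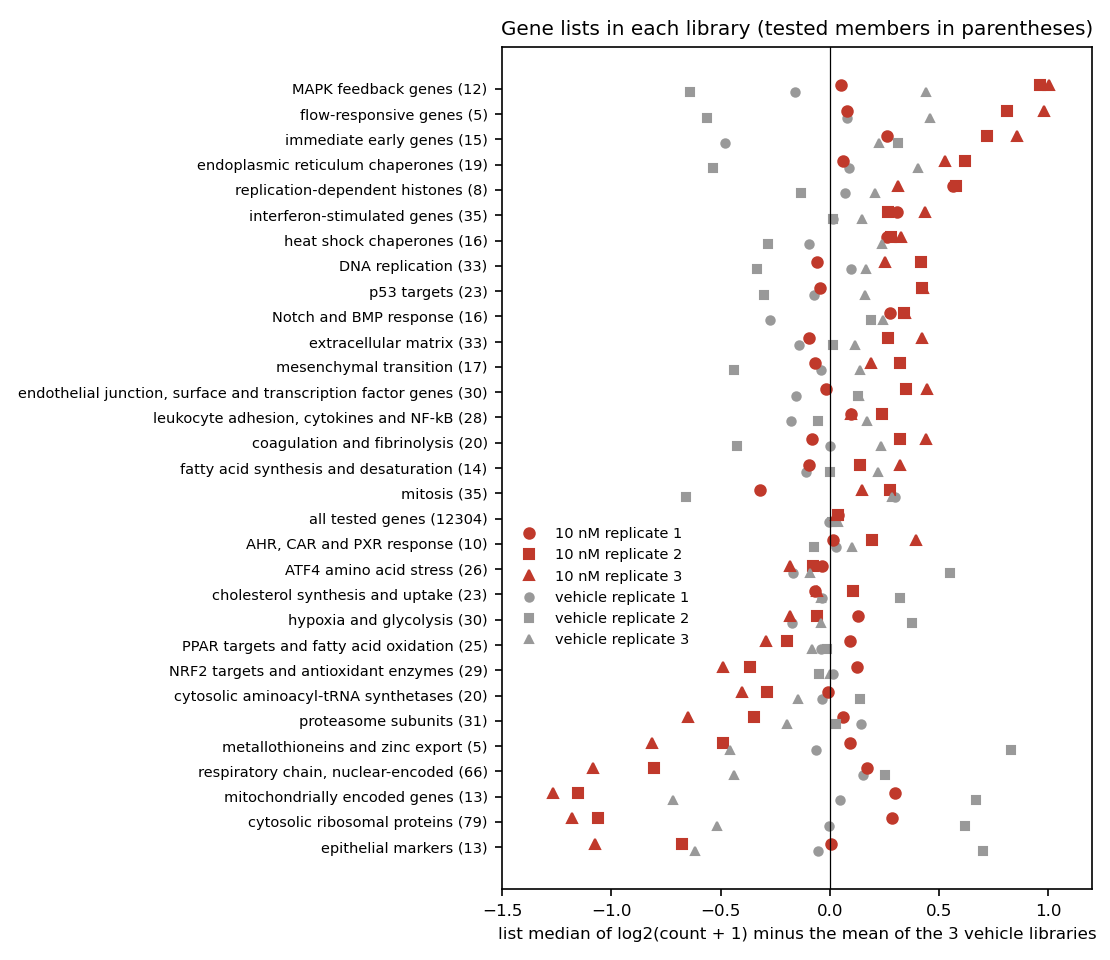
Median log2 level of each gene list minus the mean of the 3 vehicle libraries (horizontal axis) in each vehicle (grey) and 10 nM (red) library, with the number of tested members in parentheses. For interferon-stimulated genes the 3 red points lie at 0.27 to 0.44, and for ribosomal proteins 10 nM replicate 1 lies at 0.29 while replicates 2 and 3 lie at -1.06 and -1.18.

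The smallest unadjusted p of all tested genes, 0.000107 by limma, belonged to SERPINB10, a serine protease inhibitor of the ovalbumin family, which was singled out after its values were seen. It had 40.3, 37.7 and 35.9 counts at 10 nM against 8.91, 5.56 and 8.30 in vehicle, a difference of 2.20 ± 0.39. The groups did not overlap. The 1 nM libraries lay near vehicle at 8.70, 11.4 and 10.2 and the 100 nM libraries at 21.2, 48.4 and 21.1, so the 10 and 100 nM ranges overlapped. At 6 weeks it had 39.0, 44.2 and 35.2 against 8.08, 26.3 and 8.09, again without overlap. The difference was 2.23 ± 0.38 with the first principal component in the model.

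Of genes with a mean of at least 50 whose groups did not overlap, those with the smallest p on the higher side after FOSB included regulators of differentiation. ID2, an inhibitor of basic helix-loop-helix factors, had 61.1, 128 and 115 at 10 nM against 55.7, 29.6 and 54.4 in vehicle (1.09 ± 0.38). NOG, the secreted BMP antagonist noggin, had 478, 395 and 303 against 257, 235 and 234 (0.67 ± 0.26). For NOG the 100 nM libraries, at 320 to 393, also lay above vehicle, and the 1 nM libraries, at 169 to 228, below it. H2BC21, a histone H2B gene, had 133, 176 and 162 against 67.9, 50.01 and 107 (1.11 ± 0.39). MMP3, a matrix metalloproteinase, had 89.7, 100.2 and 76.7 against 37.9, 44.5 and 55.3 (0.95 ± 0.37). For MMP3 the 1 nM libraries, at 53.4 to 114.7, and the 100 nM libraries, at 73.2 to 149.5, spanned the 10 nM range. ID2 differed from vehicle by -0.16 at 1 nM and 0.89 at 100 nM, and H2BC21 by 0.44 and 0.39.

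PTGES, which makes prostaglandin E2, had 54.6, 76.1 and 131 at 10 nM against 24.5, 38.9 and 47.9 in vehicle (1.17 ± 0.60). PTGER4, a receptor of that prostaglandin singled out after its values were seen, had 190, 402 and 436 against 128, 98.2 and 212, and its groups overlapped. Other genes named by the same rule on the higher side had differences of 0.80 ± 0.32 to 1.48 ± 0.77. They were TES, a focal adhesion protein, CYB5D1, EARS2, the mitochondrial glutamyl-tRNA synthetase, TMTC1, DNAAF2, a dynein assembly factor, NFATC2, a calcium-regulated transcription factor, PCDHGB2, a protocadherin, and NPIPB2. NPIPB2 belongs to a family of near copies and PCDHGB2 shares exons with its gene cluster, so counting could split their reads and both are uncertain. Of these 8 genes, 10 nM replicate 1 was the lowest of the 3 treated libraries in each. At 100 nM all but PCDHGB2 also lay above vehicle on average, TMTC1 by 0.86 ± 0.32.

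On the lower side FAM107A, an actin-associated protein, had 53.3, 25.7 and 24.8 counts at 10 nM against 75.7, 90.8 and 61.8 in vehicle (-1.19 ± 0.40). CDCP1, a transmembrane substrate of Src kinases, had 39.0, 25.7 and 20.8 against 71.3, 79.6 and 52.6 (-1.25 ± 0.43). In both genes the 10 nM libraries lay below vehicle and replicate 1 was nearest to it. IDH2, the mitochondrial NADP-dependent isocitrate dehydrogenase, had 466, 370 and 312 against 908, 1095 and 529 (-1.09 ± 0.41). FGF1, a fibroblast growth factor that acts on endothelial cells, had 243, 228 and 101 against 456, 685 and 246 (-1.26 ± 0.55), with its highest treated library just under the lowest vehicle library. The others were GLYCTK, TMEM256, TESMIN, GIMAP1, PLEK2, PXMP2, TMEM177 and PPP1R3E, with differences of -0.61 ± 0.27 to -1.22 ± 0.46. In all 12 genes on the lower side 10 nM replicate 1 was the highest treated library.

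Transcripts for protein synthesis and respiration had lower means at 10 nM but divided the replicates. All 79 cytosolic ribosomal protein genes were tested, 0 lay higher and 79 lower, with a median difference of -0.64. The groups separated for 0 of them, beside 2.06% (higher) and 1.22% (lower) of all genes. The median was 0.29 in 10 nM replicate 1 and -1.06 and -1.18 in replicates 2 and 3, and it was -0.06 with the first principal component in the model. Of 66 nuclear-encoded genes of the respiratory chain 60 were lower, with a median of -0.56 that was -0.09 with that component. Of 13 mitochondrially encoded genes 12 were lower, with a median of -0.62 that was 0.07 with that component. The one that was higher, MT-ND4L, a subunit of complex I whose gene overlaps MT-ND4 so that counting could split their reads, had 7589, 9096 and 9668 at 10 nM against 6001, 6136 and 7062 in vehicle, without overlap. Of 31 proteasome subunits 26 were lower, with a median of -0.35, and of 13 epithelial markers 12 were lower, with a median of -0.74. These medians were -0.11 and -0.07 with that component. For both lists too, 10 nM replicate 1 lay at 0.06 and 0.01 while replicates 2 and 3 lay lower. At 1 nM and 100 nM, against the same vehicle libraries, the list medians were also negative. They were -0.34 and -0.57 for ribosomal proteins, -0.13 and -0.24 for nuclear-encoded respiratory genes, and -0.48 and -0.27 for mitochondrially encoded genes. For proteasome subunits they were -0.04 and -0.04, and for epithelial markers -0.42 and -0.54.

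Of 30 tested endothelial genes for junctions, surface proteins and transcription factors 16 lay higher and 14 lower. Their median was 0.17, which was -0.0037 with the first principal component in the model and -0.04 without 10 nM replicate 3. The groups did not overlap for 1 of the 30 (beside 1.22% of all genes on the lower side), CD34, a surface sialomucin, which had 72.8, 86.6 and 82.3 at 10 nM against 94.6, 120.4 and 88.5 in vehicle (-0.32 ± 0.31, adjusted p = 0.664 by limma). EGFL7, an endothelial secreted factor, had 10520, 3154 and 2463 at 10 nM against 8408, 22606 and 4940 in vehicle, and ETS1, an endothelial transcription factor, had 476, 2289 and 2653 against 531, 215 and 1048. The 2 genes lay in opposite directions and both groups overlapped. Of 28 tested genes for leukocyte adhesion, cytokines and NF-kB 17 were higher, and of 20 for coagulation and fibrinolysis 12, with medians of 0.16 and 0.16. With the first principal component in the model these were 0.09 and 0.0076, and the coagulation median was -0.07 without 10 nM replicate 2. NFKB1 differed by 1.00 ± 0.56 and NFKB2, the other precursor subunit of the family, by -1.04 ± 0.55. Of 5 flow-responsive genes 4 were higher, with a median of 0.61 that was 0.18 with that component. KLF4, the vasoprotective factor among them, had 510, 539 and 502 counts at 10 nM against 382, 106 and 405 in vehicle (1.02 ± 0.44), without overlap, and the 100 nM libraries at 421 to 672 also lay above vehicle. NOS3, the endothelial nitric oxide synthase, differed by -0.42 ± 0.39 (adjusted p = 0.657 by limma).

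Lists for the receptors that PFOA is known for held no gene whose groups separated, beside 2.06% (higher) and 1.22% (lower) of all genes. With shares that small, lists of 25 and 10 genes can hold none without differing from all genes. Of 25 tested PPAR targets and fatty acid oxidation genes 9 lay higher and 16 lower, and their median was -0.22, which was -0.01 with the first principal component in the model, and for 0 of them did the groups separate. Of 10 tested AHR, CAR and PXR genes 5 lay higher and 5 lower, and their median of -0.0036 was -0.09 with that component and 0.29 without 10 nM replicate 1. Of 14 fatty acid synthesis genes 9 were higher, and of 23 cholesterol synthesis and uptake genes 10. Their medians of 0.12 and -0.12 were 0.01 and -0.07 with that component, and the cholesterol median was 0.05 without 10 nM replicate 1. HMGCS1, which makes the cholesterol precursor HMG-CoA, had 89.7, 191 and 244 at 10 nM against 73.5, 27.8 and 166 in vehicle, with overlap. Of 29 NRF2 targets and antioxidant enzymes 14 were higher, with a median of -0.22 that was -0.02 with that component. HMOX1, the heme-degrading oxygenase, had 796, 1229 and 1123 against 282, 563 and 711, without overlap (1.09 ± 0.58), while GPX1, a glutathione peroxidase, differed by -1.21 ± 0.69.

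In the stress lists, 12 of 26 ATF4 amino acid stress genes were higher, with a median of -0.12, and 12 of 16 heat shock chaperone genes, with a median of 0.30. With the first principal component in the model these medians were -0.04 and 0.19. BAG3, a co-chaperone of HSP70, had 1338, 1290 and 1298 counts at 10 nM against 911, 1087 and 1265 in vehicle. It lay above all 9 other libraries by a small margin, and its difference was 0.28 ± 0.24. Of 35 mitosis genes 20 were higher and 15 lower (median 0.05, and -0.29 without vehicle replicate 2), and with the first principal component in the model 2 lay higher and 33 lower (median -0.26). The 10 nM libraries lay below all vehicle libraries for 2 of the 35, beside 1.22% of all genes, and above them for 0. CCNB1, the cyclin that drives entry into mitosis, had 759, 626 and 635 against 1104, 813 and 857 (-0.45 ± 0.29), and PRC1, which bundles microtubules of the spindle midzone, differed by -0.32 ± 0.30. Of 33 DNA replication genes 20 were higher, with a median of 0.30 that was 0.04 with that component. The groups did not overlap for 2 on the higher side and 1 on the lower side, beside 2.06% and 1.22% of all genes. RRM2, the ribonucleotide reductase subunit, had 717, 948 and 652 against 1124, 959 and 972 and was the listed gene of this group that lay below all 9 other libraries (-0.41 ± 0.27). MCM3 and MCM4, subunits of the replicative helicase, lay above vehicle without overlap, with differences of 0.61 ± 0.34 and 0.30 ± 0.23. Of 19 endoplasmic reticulum chaperones 14 were higher and of 23 p53 targets 16, with medians of 0.43 and 0.25 that were 0.13 and 0.00 with that component. Of 8 tested replication-dependent histones 5 were higher, and of 30 hypoxia and glycolysis genes 13. Their medians of 0.40 and -0.13 were 0.26 and 0.04 with that component, and the hypoxia median was 0.04 without vehicle replicate 2.

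The 10 nM libraries were also compared with their neighbouring doses. Against 1 nM, limma called 0 of 12304 genes, with a smallest adjusted p of 0.999, and 55 (0.447%) had an unadjusted p under 0.05. Against 100 nM it called 0, with a smallest adjusted p of 1, and 170 (1.38%) had an unadjusted p under 0.05. MX2 was 1.15 above 1 nM and 1.67 above 100 nM on the log2 scale, with unadjusted p of 0.00955 and 0.000733 by limma. FOSB was 1.31 and 0.96 above them (unadjusted p = 0.00398 and 0.0229), and OAS2 was 0.70 and 0.58 above them (unadjusted p = 0.0187 and 0.0439). None of these passed the adjustment. The median of interferon-stimulated genes against vehicle was 0.02 at 1 nM, 0.37 at 10 nM and -0.05 at 100 nM. These comparisons share the 3 vehicle libraries. For the immediate early genes the medians were -0.01, 0.51 and -0.11 in the same order. Taken directly, the median difference of interferon-stimulated genes was 0.31 from 1 nM and 0.15 from 100 nM, with 26 and 22 of 35 higher at 10 nM. For immediate early genes it was 0.39 and 0.57, with 12 and 13 of 15 higher. Over all 12304 genes it was -0.01 and -0.01, with 5951 and 5957 higher.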

How the data were processed

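RNA was sequenced as mRNA libraries from wild-type EA.hy926 cells, with RNA integrity numbers above 9, per the labels' protocols. The authors deposited a signal per gene, namely read counts divided by a library factor. HISAT, Bowtie2 and DESeq2 with build GRCh38.p14 are named per the submitters' processing notes, and the sources used here do not give the counting tool or whether strand was used. Within each library the deposited values were whole multiples of 1 step (100% within 0.01 of a whole read), so reads were recovered for alternative tests. Normalised counts summed to different totals, and vehicle replicate 2 had the largest total.

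Genes with a mean of at least 10 over the 12 libraries at 12 weeks were tested with limma 3.58.1 (R 4.3.3) on log2(signal + 1), with a pseudocount of 1, 1 mean per group, a trended prior, two-sided tests and Benjamini-Hochberg adjustment. This scale understates changes of low genes. The 6-week comparison used both tables. Alternatives were edgeR 4.0.16 and DESeq2 1.42.0 on recovered reads and those in the closing section. The tests were checked on simulated data. Named genes had no overlap, an official symbol and a mean over the 12 libraries of 50 or more, up to 12 per direction by p, plus up to 6 by size, plus list members. The members and lists were chosen with earlier results of these data known. Replicates are labelled biological. The labels do not say that equal numbers mark a shared flask or day. GC content is that of the longest GENCODE transcript (96.4% of genes), and positions are RefSeq's on GRCh38.p14. Of the promoter table, MX2 and OAS2 had no entry. A few genes that this rule covers are left out of the text.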

Additional observations from a re-analysis of the deposited data

How the results depend on the processing

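No gene passed for 10 nM against vehicle with pseudocounts of 0.1 or 10, no filter, a mean of at least 50, quantile normalization, the first principal component as a covariate (limma or edgeR), only the compared groups, edgeR, or any library left out (0 to 0 genes, with 23 to 3020 at an unadjusted p under 0.05). The same held without vehicle replicate 2 and 10 nM replicate 1 together, a setting chosen after seeing the data like edgeR with the covariate (0 genes, smallest adjusted p 0.503). Library quality weights gave 4407 genes against vehicle and 6509 against 1 nM, and 0 against 100 nM or between times. These weights ran from 0.152 for vehicle replicate 2 to 8.82 for 10 nM replicate 2, and they were estimated gene by gene after the default estimate, which did not converge, had been seen to give 9087 genes against vehicle. DESeq2 called 2 genes against vehicle, 2 against 1 nM, 1 against 100 nM and 1 between times. The replicate block called 0 genes, with 229 at an unadjusted p under 0.05. Deviations of same-numbered libraries correlated at -0.36, -0.70 and 0.86 over genes, and those of differently numbered libraries at -0.89 to 0.81. With so few pairs and so wide a range, these values cannot tell whether equal numbers mark a shared flask or day.

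Leaving out 1 library gave differences of -7.10 to -2.05 points for the ribosomal share and -2.66 to -0.89 for the mitochondrial share. The same gave 0.17 to 0.51 for the median of interferon-stimulated genes, with the lowest without vehicle replicate 2, and 0.27 to 0.79 for immediate early genes. Of the list medians in the report, those of the endothelial (-0.04 to 0.38), coagulation (-0.07 to 0.35), mitosis (-0.29 to 0.25), cholesterol (-0.28 to 0.05), hypoxia (-0.26 to 0.04) and AHR, CAR and PXR (-0.05 to 0.29) lists spanned 0. It gave 1.00 to 1.32 for FOSB, 0.96 to 1.39 for MX2, 0.48 to 0.74 for OAS2 and 2.02 to 2.32 for SERPINB10. IFI6 ran from -0.12 to 0.66, IFI27 from -0.29 to 0.70 and BST2 from -0.31 to 0.76, each lowest without 10 nM replicate 1. With the first principal component, ISG15 turned from -0.99 to 0.22 (0.21 in edgeR), IFITM3 from -0.81 to 0.076 (0.083) and IRF7 from -1.01 to 0.033 (0.043). The cause was not tested. Depth did not differ much between libraries, and 3 libraries a group and their spread limit what can be detected.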
